A study of Homo sapiens with 18 samples.

Results

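A run of genes on the long arm of chromosome 1, at bands 1q31 to 1q32, had lower RNA levels in MDA-MB-231 cells carrying a hairpin against IGFBP6 than in MDA-MB-231 cells carrying a control hairpin. The members are the protein-coding genes whose annotated start lies between positions 187000000 and 209000000 of chromosome 1 (GRCh38, GENCODE release 29) and that had at least 10 counts in 3 or more libraries. Of 140 protein-coding genes in that interval, 6 were set aside by name (IL24, KIF14, ASPM, BTG2, a gene whose symbol begins with EIF and one whose symbol begins with ATP6V), 52 had too few counts, and 82 were members, out of 60709 genes with counts. The interval was chosen by the line differences of these same libraries, in which its genes were lower in sh-IGFBP6, so every difference between the lines is given here as a description, with no test. What was tested is how the members responded to erastin and to docosahexaenoic acid within each line, and whether these responses differed between the lines. The choice did not use the responses within a line, although the same libraries enter both. A difference between the responses is a difference of line differences, so it is built from values that the choice used.

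RNA was measured by sequencing in 18 libraries of MDA-MB-231, an established line of breast cancer cells that lack hormone receptors. Cells carried a hairpin construct (sh-IGFBP6) that knocks down IGFBP6, which binds insulin-like growth factors outside the cell, or one against luciferase (sh-LUC), whose genotype the labels give as WT. For 24 h each line received 200 µM DHA (docosahexaenoic acid, a long-chain polyunsaturated fatty acid, in 0.5% DMSO), 2.5 µM erastin (which blocks cystine import and can trigger ferroptosis, in 0.5% ethanol) or vehicle (0.5% DMSO with 0.5% ethanol). The labels list DMSO alone with DHA and ethanol alone with erastin, so each response over vehicle also differs by a solvent. The effects of compound and solvent cannot be told apart. The 6 groups held 3 libraries each. The labels give neither whether a line is 1 clone or a pool, nor whether the 3 libraries of a group came from separate cultures. The p-values thus cover the spread between these libraries alone, and that spread may be technical.

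In a line that is not diploid throughout, as MDA-MB-231 is not, the number of copies of a chromosome segment bears on the transcripts its genes give, and the genes of a lost or gained stretch tend to move together. Single genes can depart from such a shift when their own promoters are silenced or activated. The 1q31 to 1q32 bands hold complement regulators (among them C4BPB, CD55 and CD46), a family of regulators of G-protein signalling, the p53 inhibitor MDM4 and the metastasis suppressor KISS1. DNA copy number was not measured here, so a change in copies and a change in transcription cannot be told apart in these files. In bulk RNA, a shift in all cells and a larger shift in some of the cells cannot be told apart either.

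Library totals ran from 609936 to 7977429 counts. Replicate 3 of sh-IGFBP6 erastin was the smallest library and stood apart, with 54.4% of its counts on MT-RNR1 and MT-RNR2, the ribosomal RNAs of mitochondria, which left it 278278 further counts. The remaining libraries had 0.0349% to 0.504% there. Levels are CPM, that is counts scaled to a common TMM effective library size. VIM and CD44, mesenchymal markers of this line, were at 543 CPM or more in every library, whereas the luminal genes CDH1, ESR1 and PGR were at or below 7.21 CPM. IGFBP6 itself was at 0.420 to 3.81 CPM in the sh-IGFBP6 libraries and at 12.3 to 20.9 CPM in the sh-LUC libraries. Genes were tested where they passed a filter on low counts, which 15189 genes and 81 of the 82 members did. MFSD4A, a transporter-like gene, had too few counts to pass.

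The median member had a log2 fold change (sh-IGFBP6 over sh-LUC) of -0.98 in vehicle, -0.93 in DHA and -0.83 in erastin. All 15189 genes had medians of 0.01, 0.01 and 0.00 in the same comparisons, and the other 1174 protein-coding genes of chromosome 1 had -0.10, -0.06 and -0.06. Averaged over the 3 treatments, the median member reached 0.523 of its sh-LUC level. These 3 comparisons share no library with each other. Across members their line differences went together, with Pearson's r of 0.963 between vehicle and DHA, 0.921 between vehicle and erastin and 0.935 between DHA and erastin (81 members, a description over genes that are not independent of each other). Spearman's rho was 0.899, 0.838 and 0.831 in the same order. Correlations over all genes were not computed, so nothing particular to the segment is read from these.

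Of the 81 members, 72 had a negative line difference in all 3 treatments, 6 a positive one in all 3, and UCHL5, IKBKE and C1orf116 had mixed signs. Over all genes tested 35.1% were negative in all 3, 35.7% positive in all 3 and 29.2% mixed, and since the interval was chosen for this contrast nothing is read from the gap. In 50 members every one of the 9 sh-IGFBP6 libraries lay below every one of the 9 sh-LUC libraries (15.4% of all genes), and in 3 members, PTPN7, DYRK3 and PLXNA2, every one lay above (14.1% of all genes). Without replicate 3 of sh-IGFBP6 erastin, a count added after seeing the data, 52 members did not overlap in the lower direction (17.2% of all genes). The count rule itself passed 20 members through the sh-LUC libraries alone, which favours genes that are low in sh-IGFBP6, and 1 through the sh-IGFBP6 libraries alone. Among the 61 members with at least 10 counts in 3 or more libraries of each line, 54 were negative and 5 positive in all 3 treatments. The shares of all genes under that condition were not computed.

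Library by library, the median member stood at -0.97 to -0.88 on the log2 scale in 8 of the 9 sh-IGFBP6 libraries, relative to the mean of the sh-LUC vehicle libraries, and at -0.09 to 0.03 in the 9 sh-LUC libraries. Replicate 3 of sh-IGFBP6 erastin was at -1.32, but its median over all genes was itself at -0.16 against -0.01 to 0.04 in the others, and its median over the 49 members with a mean of at least 20 CPM was -0.84. No sh-IGFBP6 library came near any sh-LUC library in this level. The members took 0.261% to 0.359% of the counts outside mitochondrial ribosomal RNA in sh-IGFBP6 libraries and 0.552% to 0.661% in sh-LUC libraries.

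**Figure D1:**
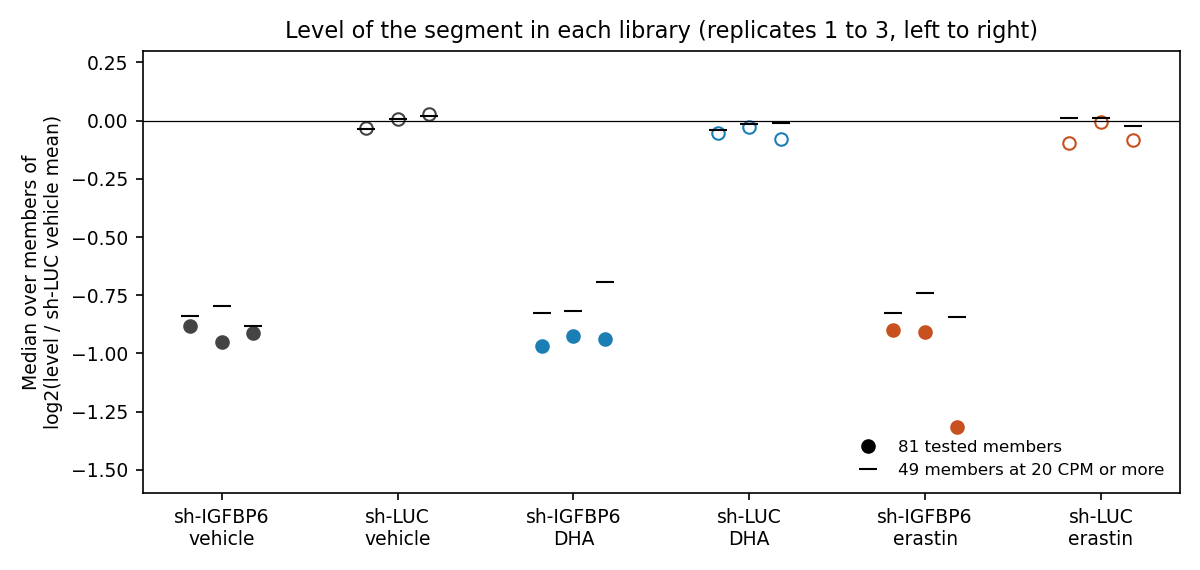
Level of the segment in each of 18 libraries, as the median over the 81 tested members of the log2 ratio to the mean of the sh-LUC vehicle libraries (circles, filled for sh-IGFBP6 and open for sh-LUC; dashes, the 49 members at 20 CPM or more). The sh-IGFBP6 libraries sit between -1.32 and -0.88 and the sh-LUC libraries between -0.09 and 0.03.

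Members of low mean level spread more widely than the others, although across the 81 members the mean line difference did not follow the sh-LUC level (Pearson's r -0.00612, a description). The 49 members at 20 CPM or more had medians of -0.81 in vehicle, -0.67 in DHA and -0.81 in erastin, and interquartile ranges of 0.829, 1.03 and 0.604. The 32 members under 20 CPM had medians of -1.36, -1.48 and -1.46 and interquartile ranges of 2.50, 2.47 and 2.65. Most members that met the count rule through sh-LUC libraries alone are among these 32, which favours negative values there. Over all protein-coding genes the ranges were also wider under 20 CPM (1.38, 1.36 and 1.31) than at 20 CPM or more (0.920, 0.928 and 0.852). Arithmetic gives a reference point for a shift in copies: a level that follows copy number changes by -1 on the log2 scale when 1 of 2 copies is missing and by -0.585 when 1 of 3 is. By the mean of the 3 line differences, 22 members lay within 0.25 of -1 and 20 within 0.25 of -0.585, with overlap between the bands. The shares of all genes in these bands were not computed, so nothing is read from these counts. Of all members, 18 were below -2 (22.2%, against 5.2% of all genes tested) and 18 between -2 and -1 (22.2% against 7.55%). A further 26 lay between -1 and -0.5 (32.1% against 12.8%), 12 between -0.5 and 0 (14.8% against 24.4%) and 7 above 0 (8.64% against 50.1%). The interval was chosen for this contrast, so nothing is read from these gaps. The values of the members formed a broad hump with long tails. Their interquartile range was 1.16, against 1.00 over all genes tested, and whether copy number changed was not tested.

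**Figure D2:**
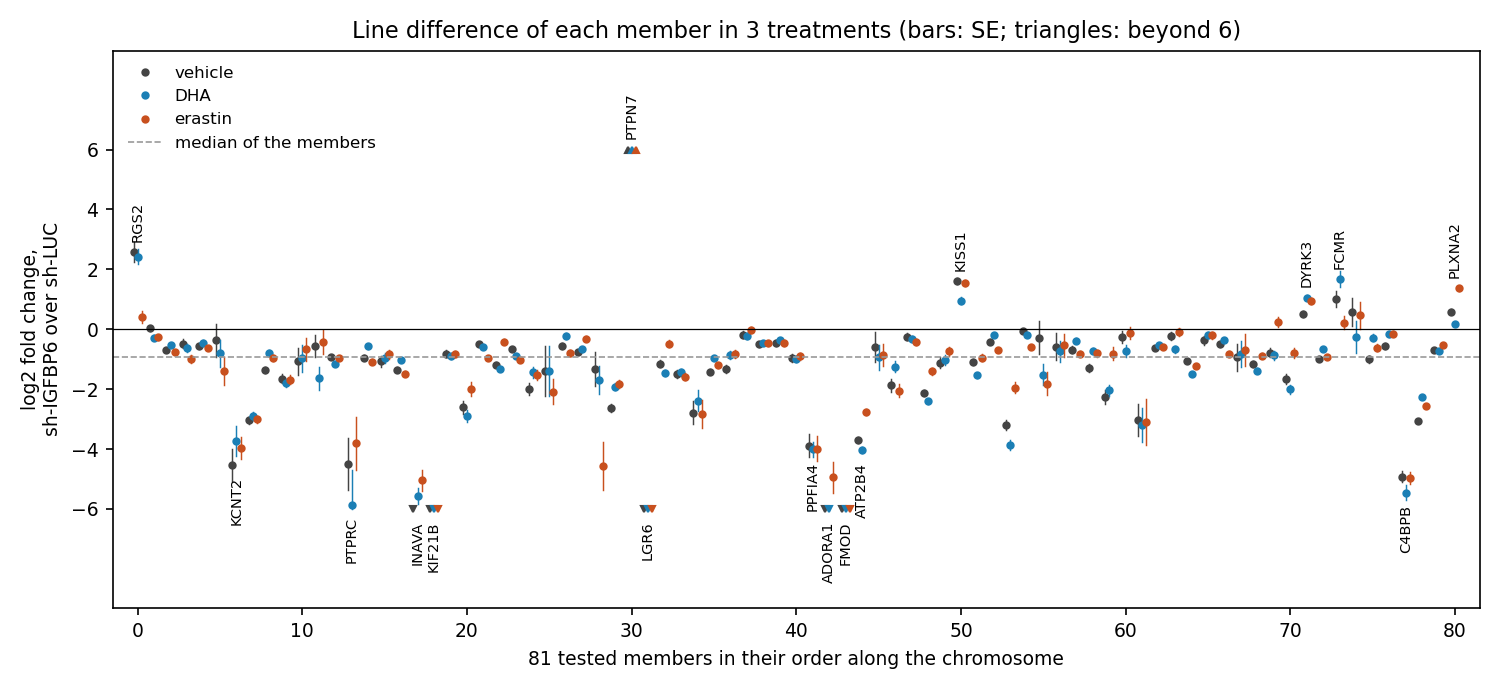
Line difference (log2 fold change, sh-IGFBP6 over sh-LUC, with its SE) of each of the 81 tested members in vehicle, DHA and erastin, in their order along the chromosome. Triangles mark values beyond 6, named genes are the 6 members above 0 in all 3 treatments and the 10 lowest, and the dashed line is the members' median of -0.94.

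Along the chromosome the shift was not even. Split into 5 groups by position, the members had medians (mean of the 3 line differences) of -0.89 in the first (RGS2 to DDX59), -1.45 in the second (CAMSAP2 to LGR6), -1.11 in the third (UBE2T to SNRPE), -0.78 in the fourth (SOX13 to SLC45A3) and -0.63 in the fifth (NUCKS1 to PLXNA2). The fifth at the far end held 4 of the 7 members whose mean was above 0. The 40 tested protein-coding genes just before the interval had medians of -0.11 in vehicle, 0.02 in DHA and -0.25 in erastin, and the 40 just after it -0.15, -0.24 and -0.18.

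In windows of 25 consecutive protein-coding genes over the genome, 2395 in all, the median window had a mean line difference of 0.00 and the lowest hundredth lay below -0.86. The 6 lowest windows all lay in the interval, and the lowest of them, from LMOD1 to SOX13, had medians of -1.39 in vehicle, -1.38 in DHA and -1.41 in erastin. Neighbouring windows share genes, so these 6 are not separate observations. Low windows were also found elsewhere: 1 on chromosome 20 from THBD to TM9SF4 had medians of -1.04 in vehicle, -1.36 in DHA and -0.93 in erastin. Elsewhere on chromosome 1 the lowest window with no member, from IGSF8 to HSPA6, had -1.05, -0.81 and -0.77.

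**Figure D3:**
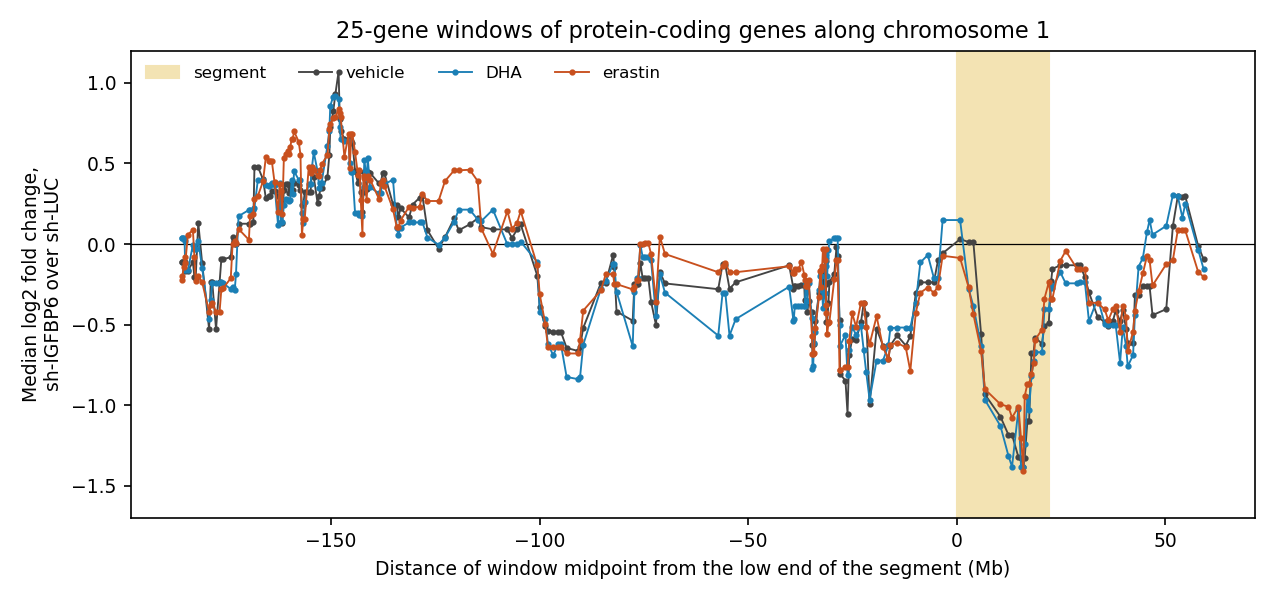
Median log2 fold change (sh-IGFBP6 over sh-LUC) in windows of 25 protein-coding genes along chromosome 1 in vehicle, DHA and erastin, against the distance of the window from the low end of the segment (shaded). Within the shading the 3 lines dip together to about -1.39, and outside it none of the windows reaches that depth.

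Where the low stretch begins and ends was located by the pair of positions that best split the long arm into an inside and an outside, over 562 tested protein-coding genes with values limited to 2 in size on the log2 scale. In vehicle the stretch ran from KCNT2 to RASSF5 (68 genes, mean -1.11 inside and -0.34 outside), in DHA from B3GALT2 to RASSF5 (69 genes, -1.15 and -0.29) and in erastin from RO60 to CDK18 (63 genes, -1.11 and -0.30). The stretches thus began and ended inside the interval, between positions 193059422 and 206507530 at their widest, and genes outside them were on average also lower in sh-IGFBP6. At the low end, the first 3 genes inside were RGS2, UCHL5 and RO60, with vehicle differences of 2.58, 0.03 and -0.69. The 3 genes just outside were ODR4, PTGS2 and PLA2G4A, with 0.13, 0.91 and 0.01. At the high end, CD55, CD46 and PLXNA2 inside had -3.05, -0.69 and 0.58, and LAMB3, G0S2 and C1orf74 outside had 0.77, 3.70 and -0.39.

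Promoter sequences are shown so that members above, at and far below the shift can be set side by side: the 250 bases upstream of the RefSeq start (GRCh38.p14, printed 5′ to 3′ on the gene's strand) of 4 members that were higher in sh-IGFBP6, 2 of the strongly lower members and 2 near the middle of the shift, with CG dinucleotides, the sites of DNA methylation, in capitals. They were chosen after their values were seen, among named members with a single RefSeq start whose upstream window lies outside the GENCODE gene body.
RGS2, higher, chr1:192808789-192809038, plus strand: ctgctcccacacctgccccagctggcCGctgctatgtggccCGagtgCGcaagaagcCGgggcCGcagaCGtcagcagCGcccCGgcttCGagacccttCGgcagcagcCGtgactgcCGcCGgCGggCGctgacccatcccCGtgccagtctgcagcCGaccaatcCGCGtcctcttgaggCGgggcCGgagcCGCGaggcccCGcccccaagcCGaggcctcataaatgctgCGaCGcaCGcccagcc
KISS1, higher, chr1:204196492-204196741, minus strand: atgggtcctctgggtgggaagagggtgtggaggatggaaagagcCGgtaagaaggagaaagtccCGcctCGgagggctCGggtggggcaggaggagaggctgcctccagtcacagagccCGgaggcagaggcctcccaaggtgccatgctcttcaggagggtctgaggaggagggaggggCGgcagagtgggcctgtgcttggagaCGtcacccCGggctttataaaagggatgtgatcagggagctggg
DYRK3, higher, chr1:206635286-206635535, plus strand: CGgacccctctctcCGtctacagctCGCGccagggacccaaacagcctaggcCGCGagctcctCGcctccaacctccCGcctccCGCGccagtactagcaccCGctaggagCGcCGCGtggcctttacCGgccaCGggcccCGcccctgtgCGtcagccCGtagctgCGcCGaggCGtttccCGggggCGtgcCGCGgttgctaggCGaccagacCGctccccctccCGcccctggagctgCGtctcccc
PLXNA2, higher, chr1:208244385-208244634, minus strand: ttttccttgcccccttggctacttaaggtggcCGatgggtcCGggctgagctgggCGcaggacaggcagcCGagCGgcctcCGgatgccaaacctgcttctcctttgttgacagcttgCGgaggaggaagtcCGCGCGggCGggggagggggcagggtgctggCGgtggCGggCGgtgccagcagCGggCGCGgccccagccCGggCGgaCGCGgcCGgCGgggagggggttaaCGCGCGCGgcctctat
PPFIA4, strongly lower, chr1:203026241-203026490, plus strand: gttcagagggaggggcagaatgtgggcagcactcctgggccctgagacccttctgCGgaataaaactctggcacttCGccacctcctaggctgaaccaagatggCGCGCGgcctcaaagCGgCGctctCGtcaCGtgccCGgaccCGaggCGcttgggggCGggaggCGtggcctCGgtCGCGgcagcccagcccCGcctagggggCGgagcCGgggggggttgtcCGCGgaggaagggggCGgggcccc
PIK3C2B, strongly lower, chr1:204494806-204495055, minus strand: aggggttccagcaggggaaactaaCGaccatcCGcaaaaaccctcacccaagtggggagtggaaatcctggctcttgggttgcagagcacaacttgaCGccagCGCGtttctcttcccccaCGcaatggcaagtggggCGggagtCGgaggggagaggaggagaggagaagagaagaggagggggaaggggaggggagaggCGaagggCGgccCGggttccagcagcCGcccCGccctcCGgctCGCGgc
DSTYK, middle, chr1:205211703-205211952, minus strand: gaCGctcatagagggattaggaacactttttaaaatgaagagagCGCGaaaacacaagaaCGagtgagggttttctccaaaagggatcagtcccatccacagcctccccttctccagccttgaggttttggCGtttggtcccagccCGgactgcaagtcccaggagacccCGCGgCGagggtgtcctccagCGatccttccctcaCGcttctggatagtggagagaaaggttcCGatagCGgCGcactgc
RABIF, middle, chr1:202889150-202889399, minus strand: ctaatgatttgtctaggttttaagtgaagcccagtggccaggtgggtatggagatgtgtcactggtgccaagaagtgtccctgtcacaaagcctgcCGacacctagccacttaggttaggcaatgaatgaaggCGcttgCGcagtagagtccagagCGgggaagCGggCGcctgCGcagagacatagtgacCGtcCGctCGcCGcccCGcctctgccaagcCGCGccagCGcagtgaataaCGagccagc

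The CG count in these windows was 28 for RGS2, 8 for KISS1, 30 for DYRK3 and 27 for PLXNA2, against 23 for PPFIA4, 16 for PIK3C2B, 14 for DSTYK and 16 for RABIF. Both dense and sparse promoters thus occurred among the higher members, and a dense promoter also headed PPFIA4, one of the lowest. RefSeq starts were matched for 69 members, whose median window held 14.5 CG dinucleotides, against 11 over all 27305 genes of the table. Fewer than 5 were held by 14.5% of the matched members and by 34.3% of all genes. The medians were 17.5 in the 6 members above 0 in all 3 treatments and 14.8 in the 60 matched members below 0 in all 3. In the 7 members whose mean difference was above 0 the median was 8, and in the 14 matched members below -2 it was 11, so the order depends on the grouping. The letters TATAAA, searched on both strands (they share no CG), stood in the windows of 6 matched members (8.7%), KISS1 among them, and of 13% of all genes. These are counts of letters, and no methylation was measured.

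The members that escaped the shift were PTPN7, RGS2, KISS1, FCMR, DYRK3 and PLXNA2. PTPN7 (minus strand, positions 202147013 to 202161588), which encodes a tyrosine phosphatase best known from blood cells, was at 19.9, 20.1 and 20.7 CPM in sh-IGFBP6 vehicle. It was at 18.3, 13.5 and 13.1 CPM with DHA and at 14.6, 15.3 and 26.7 CPM with erastin in that line. In sh-LUC it was at 0, 0 and 0.479 CPM in vehicle, 0.166, 0 and 0 in DHA and 0, 0.133 and 0.256 in erastin, or 6 counts in all. It was present in every library of sh-IGFBP6 and near absent from those of sh-LUC. PTPN7 is the 1 member that met the count rule through sh-IGFBP6 libraries alone, so the rule itself favoured a large difference in that direction. As ratios of summed counts, sh-IGFBP6 exceeded sh-LUC 104-fold in vehicle (95% counting interval 28.6 to 866), 319-fold in DHA (56.65 to 12670) and 112-fold in erastin (37.8 to 548). The next member along the chromosome, LGR6, was among the lowest.

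RGS2 (plus strand, 192809039 to 192812283), which encodes a brake on Gq signalling, was at 8.43, 9.83 and 7.88 CPM in sh-IGFBP6 vehicle against 1.42, 1.80 and 1.198 in sh-LUC vehicle. In DHA it was at 8.11, 8.001 and 13.3 CPM in sh-IGFBP6 and 1.33, 1.97 and 1.91 in sh-LUC, and in erastin at 9.45, 11.1 and 11.4 CPM in sh-IGFBP6 and 8.99, 5.86 and 8.18 in sh-LUC. Its line difference was 2.58 (SE 0.34) in vehicle, 2.42 (SE 0.25) in DHA and 0.41 (SE 0.19) in erastin, so the gap between the lines was narrow in erastin alone of the 3 treatments. The erastin value of replicate 3 in sh-IGFBP6 rests on 3 counts.

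KISS1 (minus strand, 204190341 to 204196486) encodes kisspeptin, a peptide that signals through a Gq-coupled receptor. It was at 84.3, 87.5 and 90.3 CPM in sh-IGFBP6 vehicle and at 24.1, 27.1 and 33.5 CPM in sh-LUC vehicle, a line difference of 1.60 (SE 0.10). In DHA the values were 26.1, 30.4 and 35.4 CPM in sh-IGFBP6 and 17.8, 16.2 and 13.8 CPM in sh-LUC, and in erastin 68.5, 66.2 and 34.3 CPM in sh-IGFBP6 and 21.0, 24.4 and 22.1 CPM in sh-LUC. Within each treatment the lines did not overlap, although KISS1 in DHA-treated sh-IGFBP6 cells was at the level of sh-LUC cells in vehicle.

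DYRK3, a kinase that dissolves stress granules and other condensates, was at 44.9, 45.5 and 47.3 CPM in sh-IGFBP6 vehicle and 33.3, 28.6 and 34.3 in sh-LUC vehicle. In DHA it was at 83.2, 86.8 and 81.3 CPM in sh-IGFBP6 and 38.5, 41.3 and 41.2 in sh-LUC, and in erastin at 59.8, 80.4 and 76.2 CPM in sh-IGFBP6 and 40.8, 33.8 and 33.1 in sh-LUC. PLXNA2, a semaphorin receptor and the last member at the high end, was at 98.2, 111 and 108 CPM in sh-IGFBP6 vehicle and 72.2, 77.2 and 64.7 in sh-LUC vehicle. In erastin it was at 104, 96.8 and 80.0 CPM in sh-IGFBP6 and 33.5, 38.2 and 43.9 in sh-LUC, while in DHA the means were close, 80.2 ± 2.38 and 71.0 ± 0.657 CPM (SD, n = 3 each). Both genes separated all libraries of the lines.

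FCMR, the Fc receptor of immunoglobulin M, was weakly expressed, at 6.93, 8.29 and 9.60 CPM in sh-IGFBP6 vehicle and 2.12, 5.11 and 4.79 CPM in sh-LUC vehicle. Its lines overlapped in erastin, at 7.29, 7.35 and 3.81 CPM in sh-IGFBP6 (the last from 1 count) and 5.80, 6.26 and 6.52 CPM in sh-LUC. Close to 0 was UCHL5, a deubiquitinase of the proteasome, at 57.8 ± 3.05 CPM in sh-IGFBP6 and 56.2 ± 7.35 CPM in sh-LUC in vehicle (SD, n = 3 each), with 0.03 (SE 0.10), -0.28 (SE 0.08) and -0.27 (SE 0.09) in vehicle, DHA and erastin. KLHL12, an adaptor of a ubiquitin ligase, and RAB29 were also near 0, with means of -0.14 and -0.25 over the 3 treatments.

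**Figure D4:**
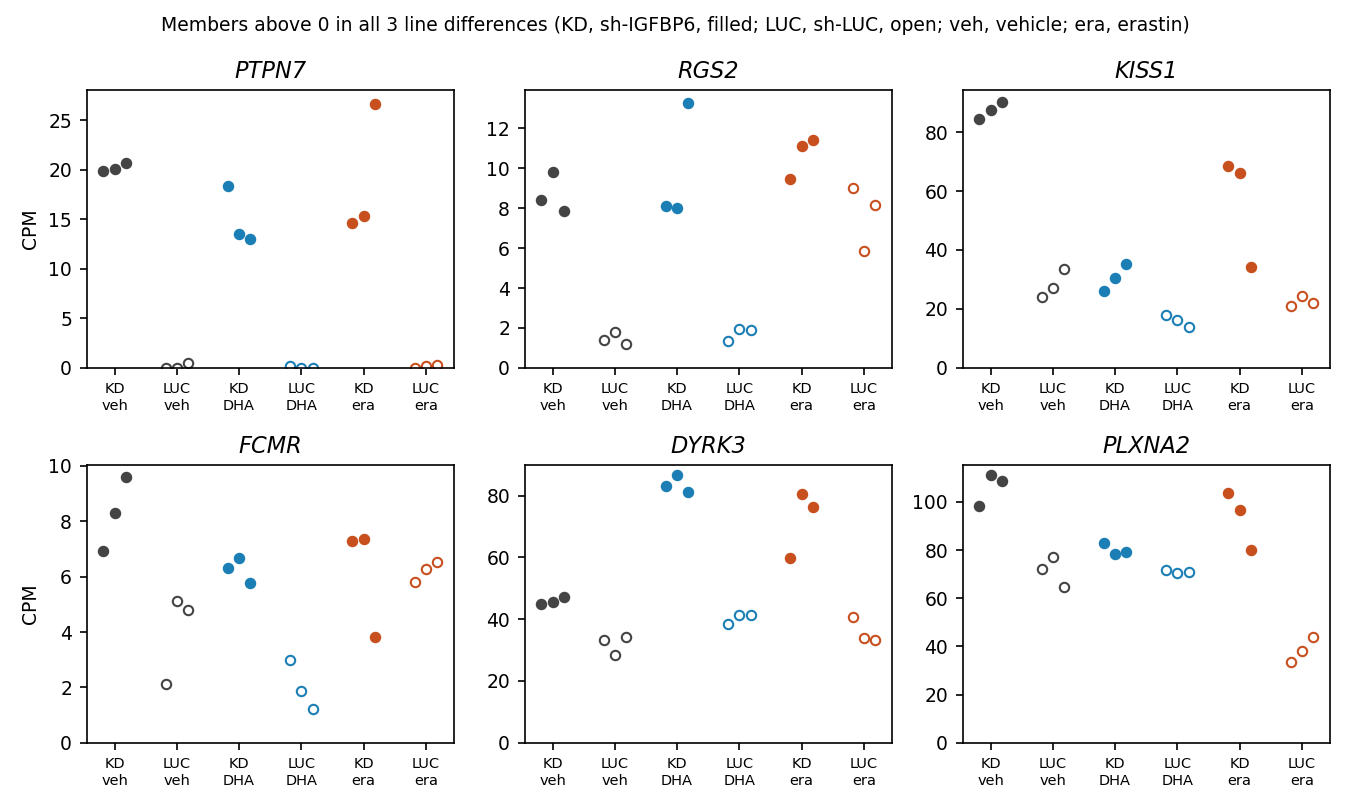
CPM of the 6 members above 0 in all 3 line differences in each of 18 libraries (filled, sh-IGFBP6; open, sh-LUC; each axis starts at 0). PTPN7, DYRK3 and PLXNA2 separate all libraries of the lines, the RGS2 gap is narrow in erastin, and KISS1 in DHA-treated sh-IGFBP6 cells is near its level in sh-LUC vehicle.

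At the other end, the 10 lowest members were FMOD, LGR6, KIF21B, ADORA1, INAVA, C4BPB, PTPRC, KCNT2, PPFIA4 and ATP2B4. All but ATP2B4 met the count rule through sh-LUC libraries alone, so the rule itself favoured such low values in sh-IGFBP6. FMOD, a collagen-binding proteoglycan of the matrix, had 1 count in the 9 sh-IGFBP6 libraries together, in vehicle replicate 3 (0.246 CPM), whereas the sh-LUC libraries had 53.4, 44.5 and 47.0 CPM in vehicle, 26.1, 27.6 and 30.4 in DHA and 58.2, 64.9 and 61.9 in erastin. The sh-IGFBP6 level was lower at least 133-fold in DHA and at least 256-fold in erastin, against a floor of 3 counts over the group. LGR6, a receptor of R-spondins, had 1 count in sh-IGFBP6, in DHA, and 25.5 ± 0.632 CPM in sh-LUC vehicle (SD, n = 3), at least 107-fold lower in sh-IGFBP6 vehicle, where it had none. ADORA1, an adenosine receptor gene, had 3 counts in sh-IGFBP6, none of them in vehicle, and 25.5 ± 1.75 CPM in sh-LUC vehicle (SD, n = 3), at least 106-fold lower in sh-IGFBP6 vehicle. KIF21B, a kinesin gene, had no count in any sh-IGFBP6 library and 4.06 ± 0.665, 7.58 ± 1.13 and 9.65 ± 1.70 CPM in sh-LUC vehicle, DHA and erastin (SD, n = 3 each).

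ATP2B4, a plasma membrane calcium pump gene, was the highest expressed of the 10. It was at 18.7, 23.7 and 13.1 CPM in sh-IGFBP6 vehicle, and with DHA at 21.3, 17.0 and 19.8 CPM and with erastin at 26.1, 32.5 and 34.3 CPM in that line. In sh-LUC it was at 241, 250 and 245 CPM in vehicle, 308, 322 and 298 in DHA and 203, 192 and 192 in erastin. Its line differences were -3.70 (SE 0.09), -4.03 (SE 0.09) and -2.76 (SE 0.09). INAVA, an adaptor of epithelial junctions, was at 0.275 ± 0.290 CPM in sh-IGFBP6 and 35.0 ± 1.40 CPM in sh-LUC in vehicle, and the synaptic scaffold gene PPFIA4 at 0.640 ± 0.348 and 9.65 ± 1.05 CPM (SD, n = 3 each). The potassium channel gene KCNT2 and the leukocyte phosphatase gene PTPRC rested on few counts, 3 and 1 in sh-IGFBP6 vehicle and 62 and 24 in sh-LUC vehicle.

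The members closest to the median among those at 20 CPM or more were DSTYK, TMEM183A, NAV1, RABIF, MAPKAPK2 and ZNF281. MAPKAPK2, the kinase downstream of p38, was at 96.1, 93.1 and 101 CPM in sh-IGFBP6 vehicle against 199, 185 and 188 CPM in sh-LUC vehicle, and at 102, 106 and 107 CPM in sh-IGFBP6 erastin against 204, 196 and 196 CPM in sh-LUC erastin. NUCKS1, an abundant chromatin protein gene of DNA repair and the most highly expressed member, was at 570, 622 and 616 CPM in sh-IGFBP6 vehicle and 1192, 1270 and 1287 CPM in sh-LUC vehicle. For both genes the lines did not overlap in any treatment.

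By role, the complement and immune surface genes were lower without exception among the 5 tested of 12 listed (the lists were drawn up with earlier results known). Of all members, 88.9% were negative in all 3 treatments, so the signs do not set this role apart. C4BPB and PTPRC met the count rule through sh-LUC libraries alone. CD55 and CD46, which protect cells from complement, had mean line differences of -2.62 and -0.65, C4BPB (the beta chain of C4b-binding protein) had -5.11 and PTPRC -4.72. CD55 was at 49.7, 49.5 and 48.5 CPM in sh-IGFBP6 vehicle and 371, 426 and 427 CPM in sh-LUC vehicle, and CD46 at 151, 147 and 133 CPM in sh-IGFBP6 vehicle and 224, 229 and 241 CPM in sh-LUC vehicle. C4BPB was at 2.11 ± 0.391 CPM in sh-IGFBP6 and 65.4 ± 7.11 CPM in sh-LUC in vehicle (SD, n = 3 each). CD55 and CD46 are neighbouring members and differed widely in depth.

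The signs of the other roles are likewise to be read against the 88.9% of all members that were negative in all 3 treatments. Of 12 chromatin and transcription genes listed, 10 were tested and all 10 were negative in all 3 treatments. Their median was -0.96, with a range from -1.98 (SOX13) to -0.54 (CDC73). All 7 tested of 9 metabolism and RNA genes were negative, from -0.96 (DDX59) to -0.34 (SNRPE), a narrow span. All 8 tested of 11 traffic and transport genes were negative, with a median of -0.54. Of 6 p53 and ubiquitin genes, 5 were negative and UCHL5 mixed, with a median of -0.28. The p53 target PHLDA3 had the lowest value of that list, -2.50. Among 9 kinases tested of 10, 7 were negative, DYRK3 positive and IKBKE mixed. IKBKE, a kinase of innate immune signalling, was at 13.5 ± 0.321 CPM in sh-IGFBP6 and 22.9 ± 2.67 CPM in sh-LUC in vehicle (SD, n = 3 each). In erastin it was at 13.1, 11.6 and 0 CPM in sh-IGFBP6 and 8.85, 8.79 and 12.9 CPM in sh-LUC, so that the lines overlapped. Of 8 cytoskeleton and adhesion genes tested of 13, 7 were negative and PLXNA2 positive. Of 3 secreted or antibody-binding genes tested of 7, FMOD was negative and KISS1 and FCMR positive.

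Erastin within sh-IGFBP6 cells changed 21 members of 81 (25.9%), 11 up (background 14.7%) and 10 down (background 14.3%), against 29.0% of all genes by edgeR's quasi-likelihood test with a Benjamini-Hochberg adjusted p below 0.05. In sh-LUC cells erastin changed 47 members (58.0%), 16 up (background 21.4%) and 31 down, against 45.9% of all genes, and the falls made up 38.3% of members against 24.4% of all genes. DHA changed 26 members in sh-IGFBP6 cells (32.1%), 11 up (background 17.4%) and 15 down (background 16.8%), against 34.2% of all genes. In sh-LUC cells DHA changed 25 members (30.9%), 10 up (background 7.14%) and 15 down (background 9.63%), against 16.8% of all genes. The median member hardly moved in any of the 4 responses, by 0.00 in sh-IGFBP6 and -0.11 in sh-LUC with erastin, and by -0.04 in sh-IGFBP6 and -0.05 in sh-LUC with DHA. In sh-LUC cells the 32 members under 20 CPM had medians of -0.44 in erastin and -0.31 in DHA, and the 49 at 20 CPM or more -0.01 and -0.01. All protein-coding genes under 20 CPM had -0.07 and -0.02 there, and those at 20 CPM or more -0.03 and 0.01. Both the choice of the interval and the count rule favoured members high in sh-LUC. Falls from sh-LUC vehicle may be favoured with them, so nothing is read from the falls in sh-LUC. Within each line the same vehicle libraries enter both responses. Of the 82 members, 20 met the count rule through sh-LUC libraries alone, which leaves few counts in which a response in sh-IGFBP6 could be called, and the shares of the lines are given without a comparison between them. With the filter and fit on the compared libraries only, erastin changed 19 of 60 members in sh-IGFBP6 and 50 of 79 in sh-LUC. Scaled by library size alone, the calls for erastin in sh-IGFBP6 were 1 up and 10 down, those for DHA 2 up and 11 down in sh-IGFBP6 and 5 up and 8 down in sh-LUC, and those for erastin in sh-LUC 9 up and 31 down. That scaling counts the mitochondrial ribosomal RNA of sh-IGFBP6 erastin replicate 3, which lowers the scaled level of every other gene in that library. The shares of all genes under these alternatives are not given here, so nothing is read from these counts.

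In sh-LUC cells, RGS2 rose by a log2 fold change of 2.38 in erastin (SE 0.33, edgeR adjusted p = 3.5e-10). The phosphatase regulator PPP1R15B, which reverses eIF2α phosphorylation, rose by 0.82 (edgeR adjusted p = 8.3e-23), MDM4 by 0.78 (edgeR adjusted p = 2.2e-20) and the glutaredoxin gene GLRX2 by 0.62 (edgeR adjusted p = 3.6e-06). The largest falls among members with a mean of at least 5 CPM were those of ADORA1 (-2.16, edgeR adjusted p = 4.75e-23), INAVA (-1.32, edgeR adjusted p = 5.2e-17), the lipid kinase gene PIK3C2B (-1.31, edgeR adjusted p = 2.7e-19) and IKBKE (-1.17, edgeR adjusted p = 3.3e-11). ADORA1 fell to 5.22, 7.33 and 4.47 CPM in erastin, against 27.2, 23.8 and 25.4 CPM in vehicle. PIK3C2B fell to 14.7, 19.6 and 19.7 CPM in erastin, against 45.3, 38.5 and 49.8 CPM in vehicle.

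In sh-IGFBP6 cells, erastin raised CD55 (0.80, edgeR adjusted p = 2.0e-14), ATP2B4 (0.62, edgeR adjusted p = 7.1e-05), DSTYK (0.62, edgeR adjusted p = 4.1e-04) and the histone demethylase gene KDM5B (0.60, edgeR adjusted p = 1.4e-09). It lowered NUCKS1 (-0.63, edgeR adjusted p = 2.3e-16), PLEKHA6 (-0.56, edgeR adjusted p = 2.8e-04), the Fanconi anaemia ubiquitin ligase partner UBE2T (-0.45, edgeR adjusted p = 0.0063) and the nuclear import gene IPO9 (-0.44, edgeR adjusted p = 7.7e-08). CD55 was at 81.8, 90.1 and 83.8 CPM in erastin and 49.7, 49.5 and 48.5 CPM in vehicle, with no overlap. The calls for DSTYK and UBE2T were lost without erastin replicate 2 (edgeR adjusted p = 0.0555 and 0.123). Scaled by library size alone, none of the 4 named rises passed (edgeR adjusted p = 0.132 for CD55, 0.227 for ATP2B4, 0.0709 for DSTYK and 0.304 for KDM5B), whereas the 4 named falls did. That scaling counts the mitochondrial ribosomal RNA of erastin replicate 3, 54.4% of its counts. It thereby lowers every other gene in that library, which works against rises and towards falls. With erastin replicate 3 left out and TMM kept, 22 members were called.

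DHA in sh-IGFBP6 cells raised DYRK3 (0.87, edgeR adjusted p = 3.1e-15), DSTYK (0.65, edgeR adjusted p = 7.3e-05) and the Parkinson's disease locus gene RAB29 (0.50, edgeR adjusted p = 0.0012). It lowered C4BPB (-1.89, edgeR adjusted p = 0.0017), KISS1 (-1.51, edgeR adjusted p = 2.8e-28), the AMPK-related kinase gene NUAK2 (-0.88, edgeR adjusted p = 0.0010) and RASSF5 (-0.78, edgeR adjusted p = 0.0014). The fall of C4BPB rests on few counts, 7, 13 and 7 in sh-IGFBP6 vehicle and 1, 4 and 3 in sh-IGFBP6 DHA. C4BPB met the count rule through sh-LUC libraries alone. KISS1 was at 26.1, 30.4 and 35.4 CPM in DHA against 84.3, 87.5 and 90.3 CPM in vehicle, with no overlap. The call for RAB29 was lost when libraries were scaled by size alone (edgeR adjusted p = 0.0762).

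In sh-LUC cells DHA lowered C4BPB (-1.35, edgeR adjusted p = 5.0e-24), the glycolysis regulator gene PFKFB2 (-1.198, edgeR adjusted p = 3.7e-17), FCMR (-1.08, edgeR adjusted p = 0.011) and LGR6 (-1.02, edgeR adjusted p = 3.4e-09). It raised PPFIA4 (0.92, edgeR adjusted p = 8.0e-06), the transporter gene SLC45A3 (0.50, edgeR adjusted p = 0.0012), PLEKHA6 (0.38, edgeR adjusted p = 1.8e-04) and ATP2B4 (0.34, edgeR adjusted p = 8.3e-06). FCMR no longer passed when vehicle replicate 2 (edgeR adjusted p = 0.112), vehicle replicate 3 (0.135) or DHA replicate 3 (0.0848) of sh-LUC was left out. The calls for ATP2B4 and FCMR were also lost when libraries were scaled by size alone (edgeR adjusted p = 0.362 and 0.0652). CD55, which rose with erastin in both lines, fell by 0.90 on the log2 scale with DHA in sh-LUC.

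Whether the lines responded unequally was tested as an interaction. This interaction equals the line difference in the treatment minus that in vehicle, values that the choice of the interval used, so it gives no independent support. Some members called in erastin rest on few counts. In sh-IGFBP6, ADORA1 had 0 counts in vehicle and 2 in erastin, and GPR37L1 had 10 and 1. In erastin 25 of 81 members (30.9%) differed between the lines, 17 with a higher response in sh-IGFBP6 (background 14.1%) and 8 with a lower one (background 12.0%), against 26.2% of all genes. In DHA 16 members (19.8%) did, 11 with a higher response (background 10.4%) and 5 with a lower one (background 10.2%), against 20.6% of all genes. The DHA share is near that of all genes. Scaled by library size alone, without TMM, 6 members differed in erastin and 1 in DHA. The shares of all genes under that scaling are not given here. Of the members named next, RGS2 and PLXNA2 in erastin and KISS1 in DHA passed under that scaling, and the other 13 differences did not (edgeR adjusted p = 0.0686 to 0.631).

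For erastin the smallest p belonged to NAV1, a microtubule-guidance gene: 66.2, 62.4 and 41.9 CPM in sh-IGFBP6 erastin against 67.2, 64.4 and 67.4 in sh-IGFBP6 vehicle, and 86.4, 79.4 and 88.0 CPM in sh-LUC erastin against 154, 158 and 141 in sh-LUC vehicle. The response was -0.06 (SE 0.09) in sh-IGFBP6 and -0.83 (SE 0.07) in sh-LUC, a difference of 0.78 (edgeR adjusted p = 8.5e-09). PLXNA2 differed in the same way, with -0.09 in sh-IGFBP6 and -0.88 in sh-LUC (difference 0.78, edgeR adjusted p = 3.4e-08), as did SOX13, a transcription factor gene, with -0.13 and -0.84 (difference 0.71, edgeR adjusted p = 1.6e-04). ATP2B4 had 0.62 in sh-IGFBP6 and -0.33 in sh-LUC, opposite directions that both passed the test (difference 0.94, edgeR adjusted p = 7.8e-08). CD55 rose in both lines, by 0.80 in sh-IGFBP6 and 0.29 in sh-LUC (difference 0.51, edgeR adjusted p = 2.6e-05).

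Larger responses in sh-LUC were those of RGS2, at 0.21 in sh-IGFBP6 and 2.38 in sh-LUC (difference -2.17, edgeR adjusted p = 7.9e-06), and MDM4, at 0.25 and 0.78 (difference -0.53, edgeR adjusted p = 8.6e-06). MDM4 was at 126, 130 and 126 CPM in sh-IGFBP6 erastin and 198, 189 and 189 CPM in sh-LUC erastin, while in vehicle it was at 108, 110 and 103 CPM in sh-IGFBP6 and 109, 105 and 119 CPM in sh-LUC. The lines thus overlapped in MDM4 in vehicle and not in erastin. CSRP1, a LIM protein gene of actin bundles, had -0.37 in sh-IGFBP6 and 0.09 in sh-LUC (difference -0.46, edgeR adjusted p = 5.4e-05).

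For DHA, CD55 had -0.11 in sh-IGFBP6 and -0.90 in sh-LUC (difference 0.80, edgeR adjusted p = 4.4e-10). It was at 45.6, 48.9 and 41.1 CPM in sh-IGFBP6 DHA against 49.7, 49.5 and 48.5 CPM in sh-IGFBP6 vehicle, and at 214, 213 and 230 CPM in sh-LUC DHA against 371, 426 and 427 CPM in sh-LUC vehicle. PFKFB2 fell in both lines, by 0.47 in sh-IGFBP6 and 1.198 in sh-LUC on the log2 scale (difference 0.73, edgeR adjusted p = 9.4e-04). KDM5B, with 0.43 in sh-IGFBP6 and -0.04 in sh-LUC (difference 0.47, edgeR adjusted p = 2.2e-04), and the zinc finger gene ZBTB41, with 0.42 and -0.15 (difference 0.57, edgeR adjusted p = 0.0013), rose in sh-IGFBP6. DYRK3 rose in both, by 0.87 in sh-IGFBP6 and 0.33 in sh-LUC (difference 0.54, edgeR adjusted p = 0.0021).

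Lower DHA responses in sh-IGFBP6 were those of NUCKS1, at -0.49 against -0.06 in sh-LUC (difference -0.43, edgeR adjusted p = 7.5e-06), KISS1, at -1.51 against -0.86 (difference -0.65, edgeR adjusted p = 0.0012), and PLXNA2, at -0.41 against 0.00 (difference -0.41, edgeR adjusted p = 0.0029). KISS1 and PLXNA2, which were higher in sh-IGFBP6 vehicle, thus came closer to their sh-LUC levels in DHA, and DYRK3 moved away from its.

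**Figure D5:**
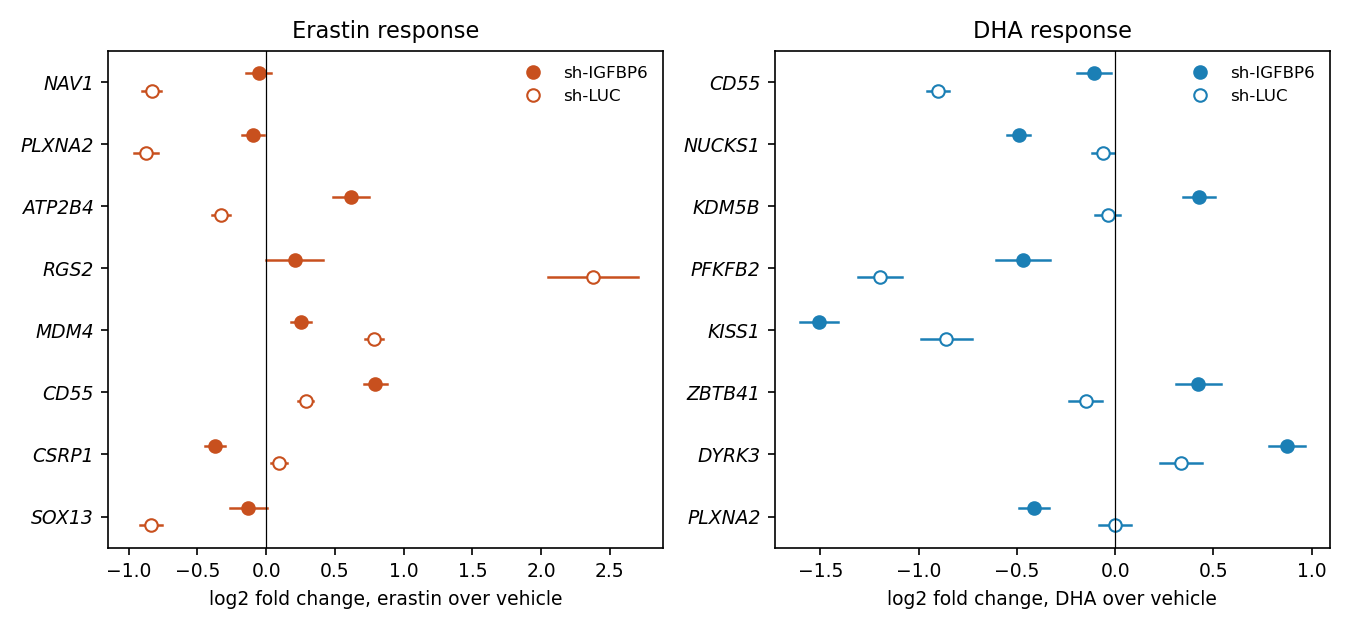
Log2 fold change over vehicle (with its SE) in sh-IGFBP6 (filled) and sh-LUC (open) for the 8 members with the smallest p of the difference between lines in erastin (left) and in DHA (right). RGS2 in erastin shows the widest gap, at 0.21 in sh-IGFBP6 and 2.38 in sh-LUC, and ATP2B4 in erastin lies on opposite sides of 0.

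Gene bodies of 25 members overlap another gene that passed the count rule, and the strand setting of the counting is not given in the sources used here. Reads of ZC3H11A and ZBED6, which overlap on the same strand, of FAM72A and SRGAP2, which have near-identical copies elsewhere on chromosome 1, and of UCHL5, RO60 and GLRX2, which overlap at their ends, are therefore uncertain between genes. The same may hold for longer overlaps on opposite strands. These include PFKFB2 with YOD1 (9132 bases), RASSF5 with EIF2D (18157) and B3GALT2 with CDC73 (7610). PIK3C2B (13219) and PPP1R15B (8405) each overlap the antisense gene PPP1R15B-AS1.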

How the data were processed

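RNA of 18 libraries was depleted of ribosomal RNA and sequenced, per the labels' protocols. The values used are the raw gene counts the authors deposited; cutadapt 4.4, STAR 2.7.7a, featureCounts and GRCh38 are named in the submitters' processing notes, and for the counting step, annotation release and strand setting were not given in the sources used here. All 18 columns were matched to libraries. Lines naming no gene held at most 0.0108% of a library. Positions and gene types came from GENCODE release 29. In edgeR 4.0.16 (R 4.3.3), genes passing filterByExpr (15189) were scaled by TMM and fitted with 1 coefficient per group over all 18 libraries (12 residual degrees of freedom, biological coefficient of variation 6.29%). Treatment responses within a line, and their difference between lines, were tested by the quasi-likelihood test with Benjamini-Hochberg adjustment over all genes and a threshold of 0.05. DESeq2 1.42.0 served as an alternative, and the fit was tested on simulated data. Line differences were not tested. Low-count ratios have exact 95% intervals, with a floor of 3 counts per group, and these cover counting error only.

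Members and lists were chosen with earlier results of these data known. Named genes were the members above 0 in all 3 line differences, the 10 lowest, the 6 nearest the median at 20 CPM or more, up to 4 called rises and falls per response at 5 CPM or more, up to 8 called members by p per difference in response, the 3 genes on each side of each end, and the role lists. Some named genes and windows are not reported here.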

Additional observations from a re-analysis of the deposited data

Results flagged for a closer look

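The responses of 14 members to a treatment differed between the lines by a test of the difference itself, and these are the members with the smallest p among those that passed. In erastin the response in sh-IGFBP6 minus that in sh-LUC was 0.78 for NAV1, 0.78 for PLXNA2, 0.94 for ATP2B4, 0.51 for CD55 and 0.71 for SOX13 on the log2 scale. It was -2.17 for RGS2, -0.53 for MDM4 and -0.46 for CSRP1. In DHA it was 0.80 for CD55, 0.47 for KDM5B, 0.73 for PFKFB2, 0.57 for ZBTB41 and 0.54 for DYRK3, and -0.43 for NUCKS1, -0.65 for KISS1 and -0.41 for PLXNA2. When libraries were scaled by size alone, 13 of these 16 differences no longer passed, with edgeR adjusted p from 0.0686 to 0.631, and those of RGS2 and PLXNA2 in erastin and KISS1 in DHA passed.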

How the results depend on the processing

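No value with a test changed direction under the alternatives run. Scaling by library size alone, which counts the mitochondrial ribosomal RNA of sh-IGFBP6 erastin replicate 3 and brings the median line difference of all genes in vehicle to 0.105, gave 11 called members for erastin in sh-IGFBP6 (main 21), 13 for DHA in sh-IGFBP6 (26), 13 for DHA in sh-LUC (25), 6 for the difference in erastin (25) and 1 for the difference in DHA (16), and 21 calls of named members were lost. It gave segment medians of -0.88 in vehicle and -0.97 in DHA. The DHA median was -0.97 with DESeq2 size factors and -1.004 with no filter on low counts. Leaving out 1 library at a time gave 16 to 22 called members for erastin in sh-IGFBP6, 44 to 47 for erastin in sh-LUC, 22 to 27 for DHA in sh-IGFBP6, 19 to 25 for DHA in sh-LUC, 18 to 25 for the difference in erastin and 12 to 18 for that in DHA. The segment median then ran from -1.04 to -0.95 in vehicle, from -0.98 to -0.89 in DHA and from -0.92 to -0.83 in erastin. Of 21 same-numbered pairs of libraries, 3 had a correlation of deviations over 0.1 (range -0.164 to 0.237). Differently numbered pairs were not examined, so whether the replicate numbers pair the libraries was not tested. With the replicate block 22, 47, 26 and 25 members were called for erastin in sh-IGFBP6, erastin in sh-LUC, DHA in sh-IGFBP6 and DHA in sh-LUC. Shares of all genes called under these alternatives are not given here, so the counts of called members have no background beside them.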

Other observations

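Of 16 noncoding genes of the interval with enough counts, 11 were tested, and their median line difference was -0.68 in vehicle, -1.2001 in DHA and -1.02 in erastin. MIR181A1HG, the host transcript of a miR-181 cluster, averaged 5.81 CPM in sh-IGFBP6 vehicle and 23.1 CPM in sh-LUC vehicle, with line differences of -1.97, -1.77 and -2.36. MIR29B2CHG, the host transcript of a miR-29 cluster, had -0.89, -1.09 and 0.06. LINC01036 had no count in sh-IGFBP6 vehicle and averaged 2.07 CPM in sh-LUC vehicle.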
